A study of Mus musculus with 2 samples.

Results

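The transcripts described here are the well-expressed noncoding RNAs of myeloid cells taken out of mouse mammary tumours. They are the array probes designed on RefSeq transcripts with the prefix NR_, which marks noncoding transcripts, whose processed signal was well above background and at least 200 intensity units on both arrays. The members were thus chosen by their processed signals on both arrays, the same values that are compared below, and no test was run on them. Of 1216 NR_ probes with a value on both arrays, 127 (10.4%) passed, out of 39413 probes in all. They stood for 102 transcript accessions, and the RefSeq table gave 113 of the 127 probes (89.0%) a symbol, from 92 genes. By that table, 50 probes measured long noncoding RNA genes, 55 measured transcribed pseudogenes, 5 measured small RNAs or ribosomal RNA, 3 measured NR_ transcripts of protein-coding genes, and 14 probes of 10 accessions stayed without a name.

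Both groups were female BABL/c mice, the strain as spelled in the labels, that carried tumours of 4T1 cells, a mammary carcinoma line, after injection of 1000000 cells. For 16 days the NSD group received chow with 0.4% NaCl and tap water, and the HSD group received chow with 4% NaCl and drinking water with 1% NaCl. Monocytic myeloid-derived suppressor cells (M-MDSCs), immature monocyte-like cells that restrain T cells, were isolated from the tumours with a bead kit and mixed in equal numbers within a group, so that a group is 1 pool of animals, and the labels give no age. Each pool was measured on 1 one-colour Agilent Mouse GE v2 array, both on the same slide. There is thus no spread between animals, no test and no p-value, and every comparison below sets 1 array against the other. With bulk RNA, fewer cells of a type and less RNA per cell cannot be told apart.

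Long noncoding RNAs are transcripts without a long reading frame, and many stay in the nucleus, where they act on chromatin, on nuclear bodies or on neighbouring genes. Some are known mainly as carriers, since small nucleolar RNAs or microRNAs are cut out of them. Transcribed pseudogenes are copies of coding genes that have lost the frame but are still copied into RNA, and a probe on one can also bind the RNA of its parent gene or of another copy. Spliceosomal and nucleolar small RNAs and ribosomal RNA lack a poly(A) tail, on which the oligo-dT primer of the labelling kit named in the labels relies.

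The sequences most tied to the values below belong to microRNAs that lie inside members and to the promoters of 3 members. By the RefSeq table, F630028O10Rik contains Mir223 and Mir22hg contains Mir22, each on the same strand. Mir6363 lies within the span of Dubr but on the opposite strand, so Dubr is not its host. The mature forms of these microRNAs follow, from RefSeq, with the seed (bases 2 to 8) in capitals, and no 2 of the 5 share a seed.
mmu-miR-223-3p (GRCm38.p6, chrX:96242884-96242905, plus strand): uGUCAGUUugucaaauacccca
mmu-miR-223-5p (GRCm38.p6, chrX:96242842-96242864, plus strand): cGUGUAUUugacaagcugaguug
mmu-miR-22-3p (GRCm38.p6, chr11:75463772-75463793, plus strand): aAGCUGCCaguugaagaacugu
mmu-miR-22-5p (GRCm38.p6, chr11:75463734-75463755, plus strand): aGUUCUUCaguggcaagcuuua
mmu-miR-6363 (GRCm38.p6, chr16:50727204-50727225, plus strand): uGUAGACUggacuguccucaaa
The arrays measured the long transcripts, not these mature microRNAs.

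RefSeq promoters, from 250 bases before to 50 after the start, were held for 31 of the 46 long noncoding RNA genes among the members and for 0 of the 38 pseudogenes. They were searched on both strands for the core of the tonicity element bound by NFAT5 (TGGAAA), an NF-kB site (GGGAC followed directly by TTTCC), an AP-1 site (TGANTCA) and an interferon element (GAAA, 2 bases of any kind, GAAA), none of which overlapped another in the promoters printed. Malat1 and F630028O10Rik are shown because their transcripts lay past 1.5-fold in opposite directions, and Mirt1 because both of its probes were lower in the HSD group. Capitals mark a match on either strand.
F630028O10Rik (GRCm38.p6, chrX:96239676-96239975, plus strand): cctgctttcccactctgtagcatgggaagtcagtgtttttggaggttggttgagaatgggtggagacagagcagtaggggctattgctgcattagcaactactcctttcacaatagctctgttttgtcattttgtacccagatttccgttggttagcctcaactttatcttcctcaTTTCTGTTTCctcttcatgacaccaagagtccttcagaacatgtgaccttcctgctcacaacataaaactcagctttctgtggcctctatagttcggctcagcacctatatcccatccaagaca
Malat1 (GRCm38.p6, chr19:5802623-5802922, minus strand): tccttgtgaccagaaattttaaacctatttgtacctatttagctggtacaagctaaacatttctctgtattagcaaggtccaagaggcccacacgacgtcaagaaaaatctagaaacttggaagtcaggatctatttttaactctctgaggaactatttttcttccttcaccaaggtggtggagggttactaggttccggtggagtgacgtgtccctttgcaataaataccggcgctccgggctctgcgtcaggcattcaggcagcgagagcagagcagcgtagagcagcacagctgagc
Mirt1 (GRCm38.p6, chr19:53464747-53465046, minus strand): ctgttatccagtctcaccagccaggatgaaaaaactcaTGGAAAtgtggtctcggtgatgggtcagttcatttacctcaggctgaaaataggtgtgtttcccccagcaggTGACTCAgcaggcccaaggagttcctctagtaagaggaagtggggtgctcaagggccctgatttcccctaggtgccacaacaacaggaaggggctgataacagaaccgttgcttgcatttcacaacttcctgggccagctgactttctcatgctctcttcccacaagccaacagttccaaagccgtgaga
The F630028O10Rik promoter held 1 match, to the interferon element on the reverse strand. The Mirt1 promoter held 1 tonicity core and 1 AP-1 match, and the Malat1 promoter held 0 matches. Over the 34 promoters of the 31 genes, 10 (29.4%) held the tonicity core, against 21.4% of all 32851 promoters of that length and 25.3% of those of long noncoding RNAs. The AP-1 site was in 2 (5.88%, against 7.81% of all), the interferon element in 1 (2.94%, against 3.44%) and the NF-kB site in 0 (against 0.155%). The tonicity core was in 1 of 3 promoters of members at least 1.5-fold higher, in 0 of 5 of those lower and in 9 of 26 of those in between. These matches are descriptions of letters in this window.

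Most members differed little between the diets. After each array was scaled on its 75th percentile, the log2 fold change (HSD minus NSD) of the 127 probes had a median of 0.13 and quartiles of -0.08 and 0.40, and ran from -1.01 to 0.95. It was above 0 for 85 probes and below 0 for 42, where 6064 of all 10048 probes past the same signal minimum were above 0. At least 1.5-fold higher in the HSD group were 16 members (12.6%), where 7.51% of all 10048 probes past the same signal minimum were higher. At least 1.5-fold lower were 9 members (7.09%), where 5.36% of all such probes were lower. Over the 7672 such probes of mRNAs the shares were 7.81% and 5.74%. Without a signal minimum, over all 27236 probes that cleared the background on both arrays, they were 8.9% and 8.04%. The median over all 10048 probes was 0.08 and over the mRNA probes 0.08. As the members were picked with these values in view, the shares are set side by side and read no further.

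**Figure D1:**
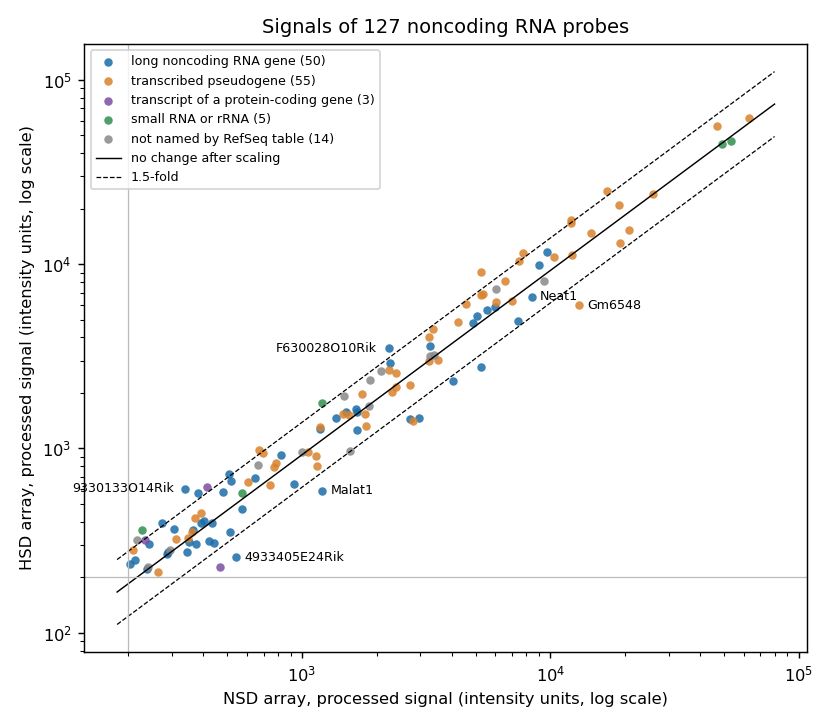
Processed signal of the 127 noncoding RNA probes on the NSD array (x axis) and the HSD array (y axis), in intensity units on log scales, coloured by class. The solid line marks no change after scaling and the dashed lines 1.5-fold. Of the points, 16 lie at or above the upper dashed line and 9 at or below the lower one, among them Malat1.

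The nuclear RNAs included the best-known members. Malat1, an abundant RNA of nuclear speckles, had 1208 units in NSD cells and 589.2 in HSD cells, a log2 fold change of -0.92 (1.89-fold lower). Neat1, the scaffold of paraspeckles and the neighbour of Malat1 on chromosome 19, had 8425 and 6652 units, a log2 fold change of -0.23. Both neighbours were thus lower in the HSD group, and Malat1 alone was past 1.5-fold. Tug1, a nuclear RNA first named in the retina, was the single member printed in more than 1 spot. Its 10 spots had 477.7, 521.3 and 559.4 units (lowest, median and highest) on the NSD array and 492.4, 688.3 and 748.7 on the HSD array. The spots of the arrays overlapped at the low end of the HSD range, and the log2 fold change of their mean was 0.47. The other Tug1 probes, under the signal minimum, gave 0.24 and 0.18. Norad, a cytoplasmic RNA that binds Pumilio proteins, had 646.7 and 694.7 units, a log2 fold change of 0.22, while its other probes lay at 0.36, 0.16 and -0.10. Of the 15 genes on the list of X inactivation and nuclear RNAs, 12 had a probe and 10 were well above background on both arrays. Of these, 0 were at least 1.5-fold higher and 1, Malat1, was lower, with a median of 0.06 per gene. Over all 15211 named genes 8.84% were higher and 9.42% lower, with a median of 0.04. These shares are the background of every gene list below, and none of the lists, which hold 2 to 20 such genes each, is read as standing apart from it. A gene counted as having a probe only where the RefSeq table gave a probe its symbol. Unnamed accessions could thus enter no list.

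Airn, the RNA that silences the paternal copy of Igf2r, had 571.4 units in NSD cells and 470.8 in HSD cells, a log2 fold change of -0.17. A dimmer Airn probe had 26.8 units in NSD cells and did not clear the background on the HSD array. Igf2r itself had 1503 and 1763 units, a log2 fold change of 0.34. Peg13, a paternally expressed RNA within Trappc9, had 404.0 and 405.3 units, a log2 fold change of 0.12. On the list of imprinted noncoding RNAs 5 of 9 genes had a probe, and all 5 were well above background on both arrays. Of these 0 were higher, 1 was lower (Mirg, 44.8 and 26.0 units, log2 fold change -0.67) and the median was -0.03.

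Among hosts of microRNAs, F630028O10Rik stood at 2234 units in NSD cells and 3505 in HSD cells, a log2 fold change of 0.76 (1.70-fold higher). It holds Mir223, a microRNA abundant in myeloid cells, whose mature sequences are printed above. Mir22hg had 305.9 and 364.5 units, a log2 fold change of 0.37. Dubr, which spans Mir6363 on the opposite strand and is not its host, had 242.4 and 303.9 units, a log2 fold change of 0.44. All 3 transcripts were above 0, as were 6064 of all 10048 probes past the signal minimum. F630028O10Rik was the one past 1.5-fold. The list of microRNA hosts, which did not hold F630028O10Rik or Dubr, had 13 genes, of which 9 had a probe and 6 were well above background on both arrays. Of these 1 was higher, Mir124-2hg, at 6.53 and 13.3 units, and 0 were lower, with a median of 0.31. Mirt1 and Mirt2 are on that list by their names, but they are transcripts associated with myocardial infarction and no microRNA lies in them by the table.

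Mirt1 and Mirt2 were first described in the infarcted heart, and Mirt2 also in macrophages. Mirt1 had 7427 units in NSD cells and 4943 in HSD cells at one probe, a log2 fold change of -0.47. Its other probe had 443.1 and 307.3 units, a log2 fold change of -0.41, so that both probes were lower by a like amount. Mirt2 had 9004 and 9914 units, a log2 fold change of 0.25. Of the 18 RNAs listed as described in innate immune cells, 8 had a probe, and all 8 were well above background on both arrays. Among these 2 were higher, F630028O10Rik and Nron (107.0 and 148.6 units, log2 fold change 0.59), and 1, Malat1, was lower, against 8.84% and 9.42% of all named genes. Nron lay almost exactly at the 1.5-fold limit. The median was 0.11.

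Hosts of small nucleolar RNAs, which guide the modification of ribosomal and spliceosomal RNA, differed little among the named members. Snhg3, which contains Snora73a and Snora73b, had 352.1 and 310.0 units, a log2 fold change of -0.07. The transcript 2410006H16Rik, which contains Snord49a, Snord49b and Snord65, had 1372 and 1467 units, a log2 fold change of 0.21. For 1110038B12Rik, which contains Snord52, the signals were 514.2 and 351.9 units and the log2 fold change -0.43. All 3 stayed within 1.5-fold. On the wider list, 11 of 21 snoRNA host genes had a probe named by the table, and all 11 cleared the background on both arrays. Among them 0 were higher and 1 was lower, with a median of -0.02 per gene (-0.04 per probe, and 0.076 with normexp background correction). Whether an unnamed accession belongs to a listed host was not examined. The one that was lower, Snhg5, was under the signal minimum, with 46.2 and 21.0 units and a log2 fold change of -1.02. Several Snhg transcripts carry a terminal oligopyrimidine start like that of ribosomal protein mRNAs, and of 20 coding genes of that kind 20 were well above background, with 0 higher, 0 lower and a median of 0.06.

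Most long noncoding RNAs past 1.5-fold were genes without a settled role. The highest of all members was 9330133O14Rik, with 338.0 units in NSD cells and 602.6 in HSD cells, a log2 fold change of 0.95 (1.93-fold higher). Its dimmer second probe had 62.0 and 79.0 units, a log2 fold change of 0.46, in the same direction. Gt(ROSA)26Sor, the transcript of the ROSA26 locus that is widely used for knock-in alleles, had 382.6 and 570.2 units, a log2 fold change of 0.69. The others at least 1.5-fold higher were 2810013P06Rik, with 274.2 and 396.0 units (0.64), and Gm8884, with 509.5 and 726.4 units (0.63). With F630028O10Rik, 5 of the 50 long noncoding RNA probes were higher (10%), where 7.51% of all 10048 probes past the signal minimum were.

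On the lower side, 4933405E24Rik had 544.3 units in NSD cells and 256.7 in HSD cells, a log2 fold change of -0.97 (1.96-fold lower). The probe of 1700110I01Rik had 2949 and 1467 units, a log2 fold change of -0.89, and its other, far dimmer probes gave -0.38 and -0.14. I730030J21Rik followed with 5277 and 2761 units, a log2 fold change of -0.82. The remaining members of this class at least 1.5-fold lower were 5830428M24Rik, with 2716 and 1439 units (-0.80), and Gm6994, with 4051 and 2326 units (-0.69). With Malat1, 6 of the 50 probes were lower (12%), where 5.36% of all 10048 probes past the signal minimum were. The median of the class was 0.11, beside 0.08 over all such probes. The unnamed NR_015528 had 1561 and 972.5 units, a log2 fold change of -0.57, just within 1.5-fold. It was past 1.5-fold in 4 of the 7 other ways of processing, down to -0.65.

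**Figure D2:**
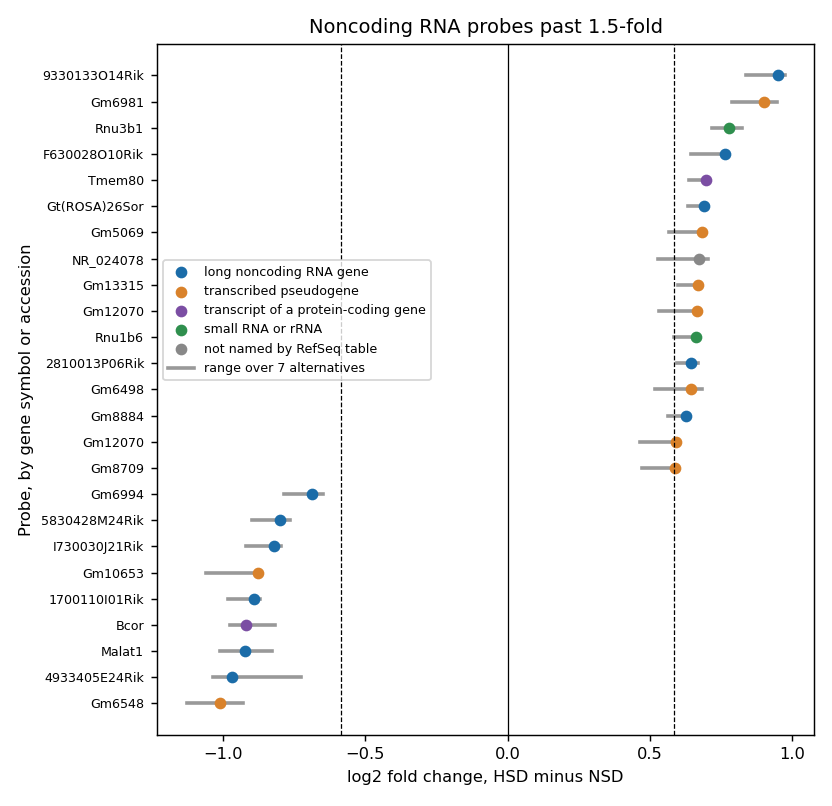
Log2 fold change (HSD minus NSD) of the 25 members past 1.5-fold, coloured by class, with a grey bar from the lowest to the highest value over 7 other ways of processing the same arrays. The dashed lines mark 1.5-fold. All 9 lower members stay past it along their whole bar, as do 8 of the 16 higher ones.

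Transcripts of protein-coding genes that RefSeq classes as noncoding could be set beside a probe on the mRNA of the same gene. The NR_ probe of Bcor, a corepressor that works with BCL6, had 467.0 units in NSD cells and 228.0 in HSD cells, a log2 fold change of -0.92. The mRNA probe had 484.3 and 302.9 units, a log2 fold change of -0.56. The NR_ probe of Tmem80, a membrane protein, had 414.1 and 620.5 units (0.70), and its mRNA probe had 336.7 and 529.3 units (0.77). The NR_ probe of Zfp207, a zinc finger protein of the mitotic spindle, had 233.5 and 317.1 units (0.56), and its mRNA probe had 1262 and 1387 units (0.25). In all 3 genes both kinds of probe lay on the same side of 0. Whether both probes of a gene read separate RNAs was not tested, as probe sequences were not analysed here.

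Pseudogenes held most of the bright probes. Above 10000 units on both arrays were 14 members, all of them pseudogenes or ribosomal RNA. Since a signal depends on the probe as well as on the RNA, the probes are not ranked against each other as levels. The 3 with the highest mean signal were a probe of Gm12070 (62883 units in NSD cells and 61879 in HSD cells, log2 fold change 0.09), Gm5523 (46814 and 56376 units, 0.38) and Rn28s1, the 28S ribosomal RNA (53499 and 46421 units, -0.09). All 3 stayed within 1.5-fold. Of the 55 pseudogene probes, from 38 genes, 7 were higher (12.7%) and 2 were lower (3.64%), with a median of 0.19. Of all 10048 probes past the signal minimum 7.51% were higher and 5.36% lower, with a median of 0.08. The lowest of all members was a probe of Gm6548, with 13038 units in NSD cells and 5972 in HSD cells, a log2 fold change of -1.01 (2.02-fold lower). The second Gm6548 probe had 14616 and 14789 units, a log2 fold change of 0.13, so that the probes of this gene lay on opposite sides of 0. Gm10653 had 2791 and 1403 units at one probe (-0.88), where its other probes gave -0.17 and -0.04. These 2 were the only genes whose member probes differed by 1.5-fold or more.

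Gm6981 had the highest pseudogene value, with 5242 units in NSD cells and 9039 in HSD cells at one probe, a log2 fold change of 0.90 (1.87-fold higher). Its other member probes gave 0.54, 0.48 and 0.42, and one more probe, under the signal minimum, gave 0.04. Gm5069 had 7758 and 11514 units at its highest probe (0.68), and its other probes gave 0.47 and 0.35. Gm12070 had 16987 and 24882 units (0.67) and 12062 and 16793 units (0.59) at the probes other than its brightest. Of the remaining pseudogenes, Gm13315 had 671.2 and 985.1 units (0.67), Gm6498 had 12069 and 17420 units (0.64), and the highest Gm8709 probe had 7475 and 10380 units (0.59), past 1.5-fold in 2 of 7 other ways of processing. The other Gm8709 probes gave 0.29 and 0.27. Probe sequences were not analysed here, so which near-identical copies each of these probes also reads was not tested, and the values belong to the probes rather than to single loci.

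**Figure D3:**
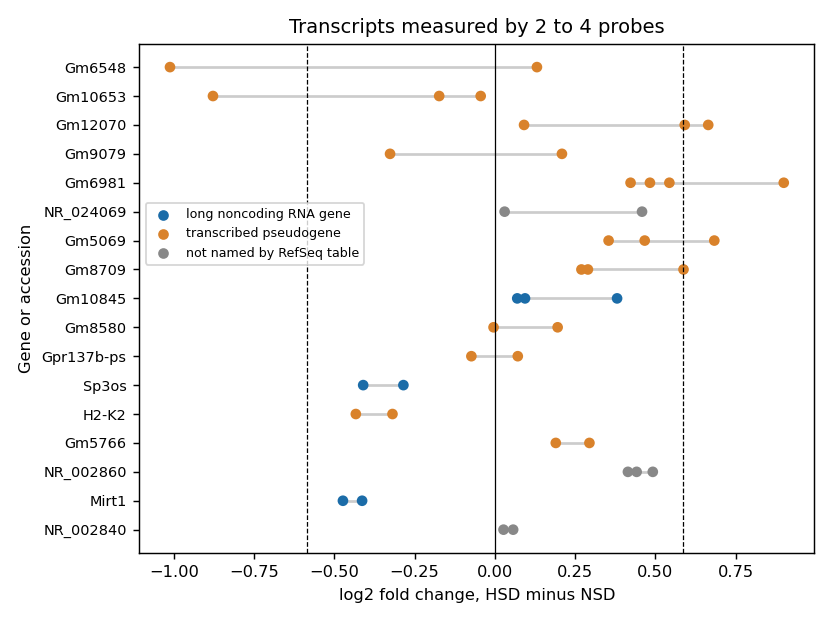
Log2 fold change (HSD minus NSD) of each member probe for the 17 genes or accessions with 2 to 4 member probes, 1 row per gene and 1 point per probe, with a grey line over their range. The dashed lines mark 1.5-fold. Gm6548 and Gm10653 have the widest range, and 4 of the 17 rows have points on both sides of 0.

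Over the 17 genes or accessions with several member probes, 42 probes in all, the range of log2 fold changes had a median of 0.31 and 15 stayed under 1.5-fold. In 6 of them the probes fell on different sides of the 1.5-fold limit. NR_ probes of the same genes that were under the signal minimum were not members, as the same rule on the same arrays left them out. Of 16 such probes above background on both arrays, from 11 genes, 12 lay on the same side of 0 as the brightest member probe and 3 differed from it by 1.5-fold or more. One of these was 2810025M15Rik, at 106.1 and 52.5 units (-0.90) where the member probe had 288.4 and 272.5 units (0.03). Another was 4931440P22Rik, whose dim probe gave -0.34 and whose member probe gave 0.27. The 12 of 16 are given as a count only, since 6064 of all 10048 probes past the minimum lay above 0.

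Some pseudogenes and antisense transcripts carry the name of a coding partner. H2-K2, a pseudogene of the class I histocompatibility genes that present peptides to T cells, had 20646 units in NSD cells and 15291 in HSD cells (-0.32) and, at its other probe, 19037 and 13026 units (-0.43). The probes of H2-K1 gave -0.22 and -0.50, so that all 4 were lower. Hmgb1-rs17, a copy of the gene of the chromatin protein Hmgb1, had 3521 and 3033 units (-0.10), while 7 Hmgb1 probes ran from 0.01 down to -0.75. Smarca5-ps, a copy of a chromatin remodelling ATPase, had 207.9 and 280.4 units (0.55), while its probes under the signal minimum gave 0.29 and, at 197.6 and 185.1 units, 0.02. Smarca5 had 967.2 and 793.7 units (-0.17). Sp3os, antisense to the transcription factor gene Sp3, had 1668 and 1265 units (-0.28) and, at its other probe, 928.0 and 645.2 units (-0.41), while Sp3 had 1844 and 2153 units (0.34).

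By the RefSeq table, small RNAs and ribosomal RNA were read by 5 probes, a count that leaves out the unnamed probes. Rnu3b1, a U3 small nucleolar RNA of ribosomal RNA processing, had 227.5 units in NSD cells and 360.6 in HSD cells, a log2 fold change of 0.78. Rnu1b6, a U1 RNA of the spliceosome, had 1208 and 1769 units (0.66). Rnu12, the U12 RNA of the minor spliceosome, had 572.2 and 575.3 units (0.12), and Rn4.5s had 49080 and 44986 units (-0.01). On the list of small structural RNAs, 2 of 12 genes had a probe, both under the signal minimum: Terc, the template RNA of telomerase, had 61.4 and 62.4 units (0.14), and Rmrp, the RNA of RNase MRP, had 39.3 and 49.9 units (0.46). RNAs without a poly(A) tail are no usual target of this labelling, and how they came to give a signal was not tested. Of the 14 unnamed probes 1 was higher (7.14%), NR_024078, with 215.8 and 317.9 units (0.67), 0 were lower and the median was 0.06. Of all 10048 probes past the signal minimum 7.51% were higher and 5.36% lower. The 3 probes of NR_002860 gave 0.41, 0.44 and 0.49.

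**Figure D4:**
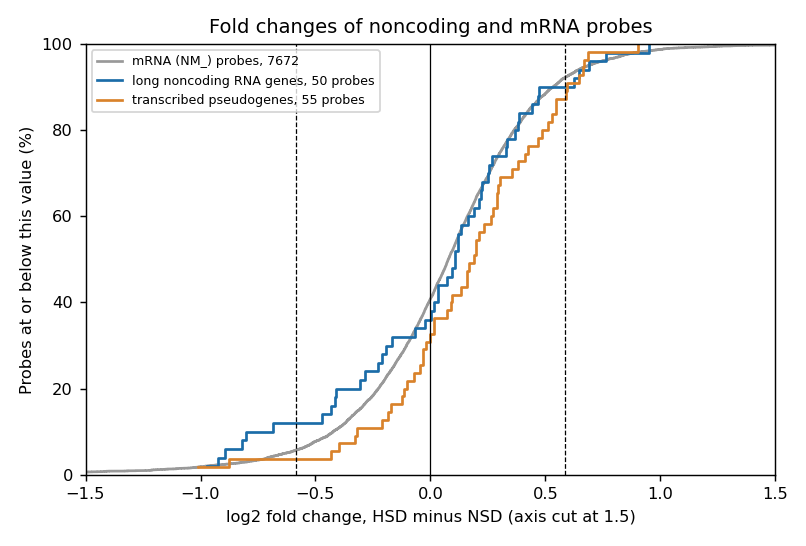
Share of probes (%) at or below each log2 fold change (HSD minus NSD; the axis ends at 1.5 on either side) for long noncoding RNA genes, transcribed pseudogenes and mRNA probes past the same signal minimum. The pseudogene curve runs to the right of the mRNA curve around 0, with medians of 0.19 and 0.08, and the curve of long noncoding RNAs lies above the mRNA curve at the lower 1.5-fold line.

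Many long noncoding RNA genes lie beside a coding gene. Of the 46 such member genes 30 had a protein-coding gene within 5000 bases in the RefSeq table, 17 of them overlapping it, and 26 of the neighbours were measured. The pair lay on the same side of 0 in 13 cases and on opposite sides in 13, and across the 26 pairs, which share both arrays, the Pearson correlation was 0.17. At 5 of these pairs the noncoding RNA was past 1.5-fold and at 3 the coding neighbour was, with 0 pairs where both were. The 3 of 26 neighbours stand beside 18.3% of all 15211 named genes that lay past 1.5-fold in either direction. Both shares use the brightest probe of a gene well above background on both arrays, with no signal minimum. The 0 joint pairs are given as a count and read no further. Next to 9330133O14Rik (0.95), Mvd, an enzyme of cholesterol synthesis, had 129.1 and 153.3 units (0.36). Next to I730030J21Rik (-0.82), Galnt6, an enzyme of mucin-type glycosylation, had 942.2 and 640.8 units (-0.44). Thumpd3, which overlaps Gt(ROSA)26Sor (0.69), had 519.6 and 442.1 units (-0.12).

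The neighbours past 1.5-fold stood beside members that were not. Tiparp, an ADP-ribosyltransferase induced by the aryl hydrocarbon receptor, had 679.8 and 971.4 units (0.63) and overlaps 4931440P22Rik (0.27). Zbtb7b, a transcription factor of helper T cell fate, had 8752 and 12871 units (0.67) and overlaps Gm15417 (0.33). Oxct1, an enzyme of ketone body use, had 812.0 and 492.2 units (-0.61) and overlaps BC037032 (0.12). Nampt, the rate-limiting enzyme of NAD salvage, had 3478 and 4424 units (0.46) and overlaps Gdap10 (3284 and 3608 units, 0.25). Lyn, a Src family kinase of myeloid cells, had 521.2 and 448.2 units (-0.10), while 6330407A03Rik, which overlaps it, had 2268 and 2908 units (0.47).

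**Figure D5:**
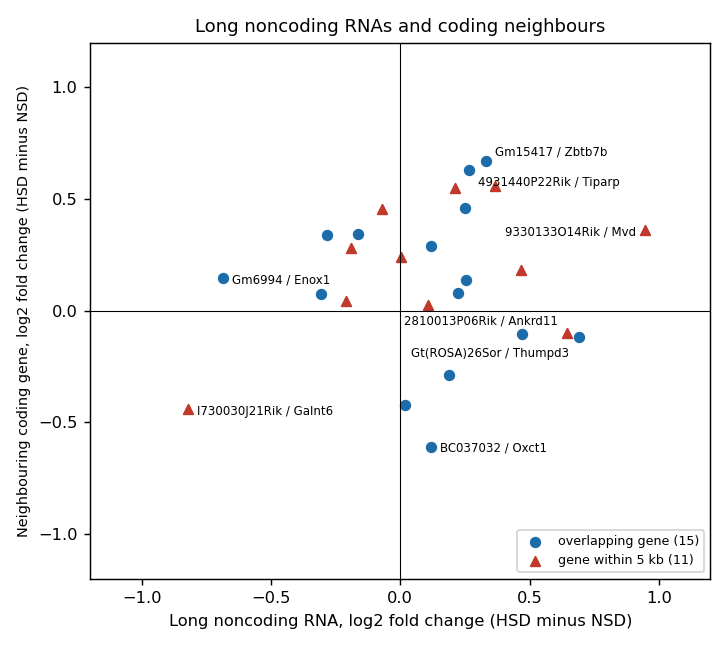
Log2 fold change (HSD minus NSD) of 26 long noncoding RNA genes (x axis) and of the nearest protein-coding gene (y axis), as circles where the genes overlap (15) and triangles where they lie within 5 kb (11). Pairs with either value past 1.5-fold are named, and none of the 26 has both.

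The minimum of 200 units set which transcripts were described. Just inside it were B130006D01Rik, with 202.2 and 235.5 units, Smarca5-ps and Gm15417 (212.9 and 247.2 units). Just outside were Thap6, with 206.4 and 199.0 units, 1500011B03Rik (194.1 and 213.4 units) and Snhg6 (209.6 and 191.6 units). Well above background on both arrays were 658 NR_ probes, of which 514 were under the minimum on both arrays and 17 on 1 array. The latter included Zfp133-ps, at 245.0 and 110.7 units (-1.03), C030034I22Rik, at 120.1 and 223.6 units (1.01), and Mir17hg, host of the miR-17 cluster, at 164.0 and 214.8 units (0.50). A further 98 NR_ probes were well above background on 1 array and 460 on neither. Members past 1.5-fold were spread over the range of signals: 7 of 34 between 200 and 500 units, 4 of 19 up to 1000, 3 of 20 up to 2000, 4 of 21 up to 5000 and 7 of 33 above, where 12.5, 14.6, 14.5, 13.6 and 9.01% of all probes in these ranges were.

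The precision of single spots could be read from probes printed many times. At the members' signals, 132 such probes had a median SD of 0.06 on the log2 scale between spots of an array, and 53 of 10944 pairs of spots (0.484%) differed by 1.5-fold. This covers the printing and scanning of 1 array, and neither labelling nor animals, and 126 of the 127 members were printed in 1 spot. No member was saturated on either array.

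The labelled cell type was checked against its markers, by the log2 fold change of the brightest probe of each gene after scaling and by the sum of its unscaled signals. Of 8 monocyte markers 7 had a probe named by the RefSeq table, and Ly6c2 had none. All 7 cleared the background on both arrays, with a median of 0.02 and sums of 214024 units in NSD cells and 201098 in HSD cells. The one past 1.5-fold was Ccr2, with 258.9 and 139.0 units (-0.78). Of 6 neutrophil markers 5 had a named probe, and Ly6g had none. All 5 cleared the background on both arrays, with a median of 0.07 and sums of 122541 and 119945 units. Mpo was past 1.5-fold, with 3536 and 1723 units (-0.92). These sums came mostly from Camp (61817 and 59919.5 units) and Csf3r (53938.5 and 54722.8 units). The monocyte sums came mostly from S100a8 (57914 and 56478 units), S100a9 (56111.5 and 51547.9 units) and Ly6c1 (51810.7 and 48478.3 units). Transcripts of both lists were thus bright in both pools, and which cells they came from was not tested. Of 5 macrophage markers 4 had a named probe, Cd68 had none, and 3 cleared the background on both arrays, with a median of -0.55. Their sums of 6908 and 4316 units came mostly from Adgre1, with 6723 and 4252 units (-0.55), while Mrc1 had 134.3 and 5.49 units (-4.50) and C1qb had 50.4 and 58.4 units (0.33), and C1qa had 12.2 units in NSD cells and was below the background limit on the HSD array.

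Of the other cell types, all 4 B cell markers were above 0, with a median of 0.36 and sums of 6089 and 7077 units. Over all 15211 named genes, 8279 were above 0. The 4 T cell markers had a median of -0.22, with 3 of 4 below 0 and Cd3e lower at 114.7 and 49.8 units (-1.09), while Cd3d, with 1501 and 1871 units (0.43), carried the sums of 1995 and 2241 units. Carcinoma markers were dim, with sums of 84.1 and 89.9 units over 4 of 5 genes and Krt19 not above background, but 3 of the 4 were at least 1.5-fold higher in HSD cells, namely Krt18 (0.76), Epcam (14.5 and 21.8 units, 0.70) and Krt8 (8.68 and 12.2 units, 0.61), and Cdh1 was not (45.0 and 30.8 units, -0.43). Fibroblast markers had sums of 129.2 and 101.5 units over 3 of 4 genes and a median of -0.55, with Dcn past 1.5-fold (9.82 and 5.20 units, -0.80) and Pdgfra not above background. Endothelial markers had sums of 241.0 and 267.7 units over the 2 of 3 genes above background on both arrays. Erythroid markers had sums of 10875 and 11293 units over 2 of 3 genes, as Hbb-b1 had no named probe. The part of all these markers in the differences of the noncoding RNAs was not tested.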

How the data were processed

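RNA of pooled M-MDSCs was measured on 1 array per diet. The authors deposited scanner output in which the processed signal, an intensity, had been background-corrected by Agilent Feature Extraction 11.0.1.1 without scaling between arrays, with the median spot and background intensities beside it. The authors also deposited normalised log2 values made with GeneSpring, by a method not given in the sources used here, which served as an alternative. No sample column was left unused (0).

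Each NR_ probe's spots, without control spots and outlier flags (162 and 179 spots), were averaged on the log2 scale, and the 75th percentile of all non-control probes was subtracted per array. A probe counted as well above background if 50% or more of its spots did. A difference was counted from 1.5-fold. Of all probes, 71.9% (NSD) and 72.4% (HSD) were well above background, and precision is limited by the number of arrays. No test was possible with 1 array per group. Transcript identifiers were matched to the RefSeq annotation of GRCm38.p6, by which 27217 of 39413 probes (69.1%) received a symbol. The array was designed on an older build, so its coordinates are not given. Promoters, microRNAs and gene neighbours are those of RefSeq on GRCm38.p6.

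The members and lists were chosen with earlier results of these data known. Named by rule were list genes among the members, the 3 brightest members and the 10 members at either end of the log2 fold changes. Other members, neighbours and partners were named after their values were seen. Of a listed gene with several probes the brightest was used. The alternatives were 2 other scalings, quantile normalisation, cyclic loess, normexp with an offset of 50 on the median signals, the deposited log2 values, flagged spots kept, signal minimums of 100, 500 or none, 1 probe per gene, noncoding genes by the RefSeq table, and a 2-fold limit. Counting was tested on simulated data. The software was R 4.3.3 (limma 3.58.1) and Python 3.11.15 (pandas 2.3.3, numpy 2.4.6, matplotlib 3.10.9).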

Additional observations from a re-analysis of the deposited data

How the results depend on the processing

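Of the 25 members past 1.5-fold, 17 stayed past it in the same direction under all 7 alternatives that change the values (2 other scalings, quantile normalisation, cyclic loess, normexp, the deposited log2 values, flagged spots kept), and all 25 kept their direction. The 8 that did not were all higher in the HSD group (Gm8709, Gm12070 at both probes, Gm8884, Gm6498, Rnu1b6, NR_024078 and Gm5069). NR_015528, within 1.5-fold at -0.57, was past it in 4 of the 7 (the percentile of detected probes, quantile normalisation, cyclic loess and the deposited values). The count of higher members was 16 and became 9 with cyclic loess, 10 of 90 probes with a signal minimum of 500, 76 of 658 without one and 0 at a 2-fold limit. The count of lower members was 9 and became 10 with cyclic loess, 44 without a signal minimum and 1, Gm6548, at a 2-fold limit. With quantile normalisation 11 members were higher and 10 lower. Of all probes past the minimum, 7.51% were higher and 5.36% lower in the main processing. These shares were 5.94% and 6.28% with quantile normalisation and 5.29% and 6.79% with cyclic loess. With no signal minimum they were 8.9% and 8.04%. Shares over all probes are not given for a minimum of 500 or a 2-fold limit. The median over the 12 probes of snoRNA hosts was -0.04 and became 0.076 with normexp. The cause of these shifts was not tested, except that more or fewer probes enter with another minimum. Cyclic loess moved the median of all probes past the minimum from 0.08 to -0.0021. Of all 127 members, 106 kept their direction under the 7 alternatives. No paired analysis was possible because each diet has 1 array and the labels give no replicate numbers. Which differences would recur in other animals cannot be read from 1 pool per diet.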
